A study of Homo sapiens with 20 samples.

Results

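Newly made and total mRNA of 10 genes that set how fast other mRNAs are deadenylated and destroyed was followed in MM1.S cells, an established human multiple myeloma line, after degradation of the acetyltransferases CBP and p300. The genes were ZFP36, ZFP36L1 and ZFP36L2, BTG1, TOB1 and TOB2, CNOT1 and CNOT7, ELAVL1 and XRN1, 10 of 17033 genes with a read, chosen by name for their function, with earlier results of these data known. Cells of the wild-type line received dCBP-30, a heterobifunctional CBP/p300 degrader that recruits cereblon, at 10 nM, or the solvent DMSO, for 2, 6 or 24 h, with 3 libraries in each of the 6 groups. All of these cells were fed 4-thiouridine (4sU), a uridine analog, for the last 1 h before harvest. A further 2 libraries came from MM1.S cells that were not given 4sU, for which no treatment is named. The study is of 1 cell line, and whether the replicates were separate cultures is not stated in the sources used here, so that p-values measure the spread between these libraries.

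In SLAM-seq, alkylation of 4sU makes reverse transcriptase write C in place of T, so that reads with a T>C change come from RNA made during the pulse. There were 3 measures for each gene. T>C reads, as reads per 1e6 total reads (RPM) after TMM scaling, follow the RNA made in the last 1 h that was still there at harvest. All reads, in RPM on the same scale, follow the amount of mRNA, and the labelled share, the percentage of a gene's reads with a T>C change, is high for mRNAs that are replaced quickly. A gene was called lower or higher where edgeR's quasi-likelihood test gave a Benjamini-Hochberg adjusted p under 0.05 over all genes tested and the change exceeded 2-fold. In such bulk samples, fewer cells of a kind and less RNA per cell cannot be told apart.

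Most mRNAs begin their decay with loss of the poly(A) tail. The CCR4-NOT complex, built on the scaffold CNOT1 and carrying the deadenylase CNOT7, removes the tail, after which the message is decapped and digested from its 5′ end by the exonuclease XRN1, or degraded from its 3′ end by the RNA exosome. Adaptors choose the targets: the tristetraprolin family (ZFP36, ZFP36L1, ZFP36L2) binds AU-rich elements in 3′ UTRs and recruits CCR4-NOT, the BTG/TOB proteins tie CNOT7 to mRNAs and slow cell growth, and ELAVL1 (HuR) binds similar elements and stabilizes its targets. In B-lineage cells, ZFP36L1, ZFP36L2 and BTG1 are known for restraining proliferation.

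The AU-rich elements read by the tristetraprolin family also lie in its own mRNAs. The sites below are the matches to the core nonamer, the heptamer TATTTAT with a T on either side, in the 3′ UTRs of the 4 members that hold it. They are shown because these UTRs are also the regions in which the reads were counted. Each is 30 bases of the sense strand from GENCODE release 44 transcripts on hg38, 5′ to 3′, with the nonamer in capitals. The ZFP36 site lies at chr19:39409196-39409225 on the plus strand, and the ZFP36L1 site at chr14:68788076-68788105, the ZFP36L2 site at chr2:43223447-43223476 and the ELAVL1 site at chr19:7961827-7961856 on the minus strand.
ZFP36: tatgacgactTTATTTATTctaatatgatt
ZFP36L1: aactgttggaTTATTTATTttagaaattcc
ZFP36L2: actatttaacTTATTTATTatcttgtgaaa
ELAVL1: atttatgtatTTATTTATTgaagtgtgaaa

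The heptamer, counted on the sense strand with overlaps allowed and including those within a nonamer, occurred 3 times in each of the ZFP36, ZFP36L1 and ZFP36L2 UTRs, 5 times in ELAVL1 and 3 times in XRN1. It occurred 1 time each in BTG1, TOB2 and CNOT7, and not in TOB1 or CNOT1. Of all 10086 UTRs of genes tested for T>C reads, 36.9% held the heptamer, 9.57% the nonamer and 7.51% at least 3 heptamers. Long UTRs hold more by length alone, and among UTRs within 20% of its length, 0.796% held as many heptamers as the 713 bases of ZFP36. That share was 3.39% for ZFP36L1 (1871 bases), 3.35% for ZFP36L2 (1917 bases), 3.70% for ELAVL1 (4910 bases) and 19.4% for XRN1 (4904 bases). A match of letters is a description and was not tested as a binding site.

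All 10 members passed the filter on low counts in both T>C reads and all reads. The libraries held between 12440707 and 18729077 reads on genes. Cells without 4sU gave T>C changes in 0.794% and 0.809% of reads. In labelled cells the mean share over 3 libraries was 5.54% (dCBP-30) and 6.08% (DMSO) after 2 h of treatment, 4.98% and 6.38% after 6 h, 6.38% and 8.31% after 24 h. At 24 h the conversions counted per T>C read were 1.43 to 1.51 in dCBP-30 and 2.46 to 2.51 in DMSO, whereas at 2 and 6 h both arms lay between 2.12 and 2.27. The median gene moved by 0.05 at 2 h, -0.27 at 6 h and -0.69 at 24 h (log2, T>C reads), and by no more than 0.05 in all reads. The TMM factors were set from all reads, which holds that last median near 0. Without these factors the medians at 2, 6 and 24 h were 0.10, 0.35 and 0.58 in all reads. In T>C reads they were then 0.15, 0.04 and -0.16. All 9 plasma cell markers were found, with a summed level of 5829 to 7548 RPM in DMSO that was 619 to 807 RPM after 24 h of dCBP-30. Lists of other cell types summed to at most 16.1 RPM. That value was the T cell list at 24 h of dCBP-30 (10.7 to 16.1 RPM, nearly all CD3E, against 2.23 to 7.58 RPM in DMSO), and the part of this shift in the results was not tested.

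In DMSO the labelled share differed widely between the members. With DMSO for 2 h, the labelled share was 80.5% ± 2.71 (SD, n = 3) for ZFP36, higher than in 99.8% of the 10086 genes tested, whose median was 9.30%. ZFP36L1 stood at 60.3% ± 0.375 and ZFP36L2 at 61.6% ± 3.07, above 98.8% and 98.9% of genes. Most reads of each tristetraprolin family mRNA thus carried a T>C change after 1 h of labelling. The BTG/TOB adaptors were intermediate, with 23.4% ± 0.907 for BTG1, 24.97% ± 2.74 for TOB2 and 34.1% ± 9.11 for TOB1. The general machinery was near the median of all genes, with 7.57% ± 0.988 for CNOT1, 7.77% ± 0.263 for CNOT7, 7.62% ± 1.88 for ELAVL1 and 10.9% ± 3.02 for XRN1. Without 4sU these shares were at most 1.93%, except for TOB1, where 10 and 12 T>C reads made 5.65% and 7.23% of its reads. The share also depends on how many T positions the reads cover, which differs between genes. In each of the DMSO times the 3 tristetraprolin mRNAs were the 3 highest of the 10 members, and the order of ZFP36L1 and ZFP36L2 was not the same at all times. With DMSO for 24 h, TOB1 was at 61.0% and XRN1 at 23.8%, above 97.4% and 74.3% of genes.

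**Figure D1:**
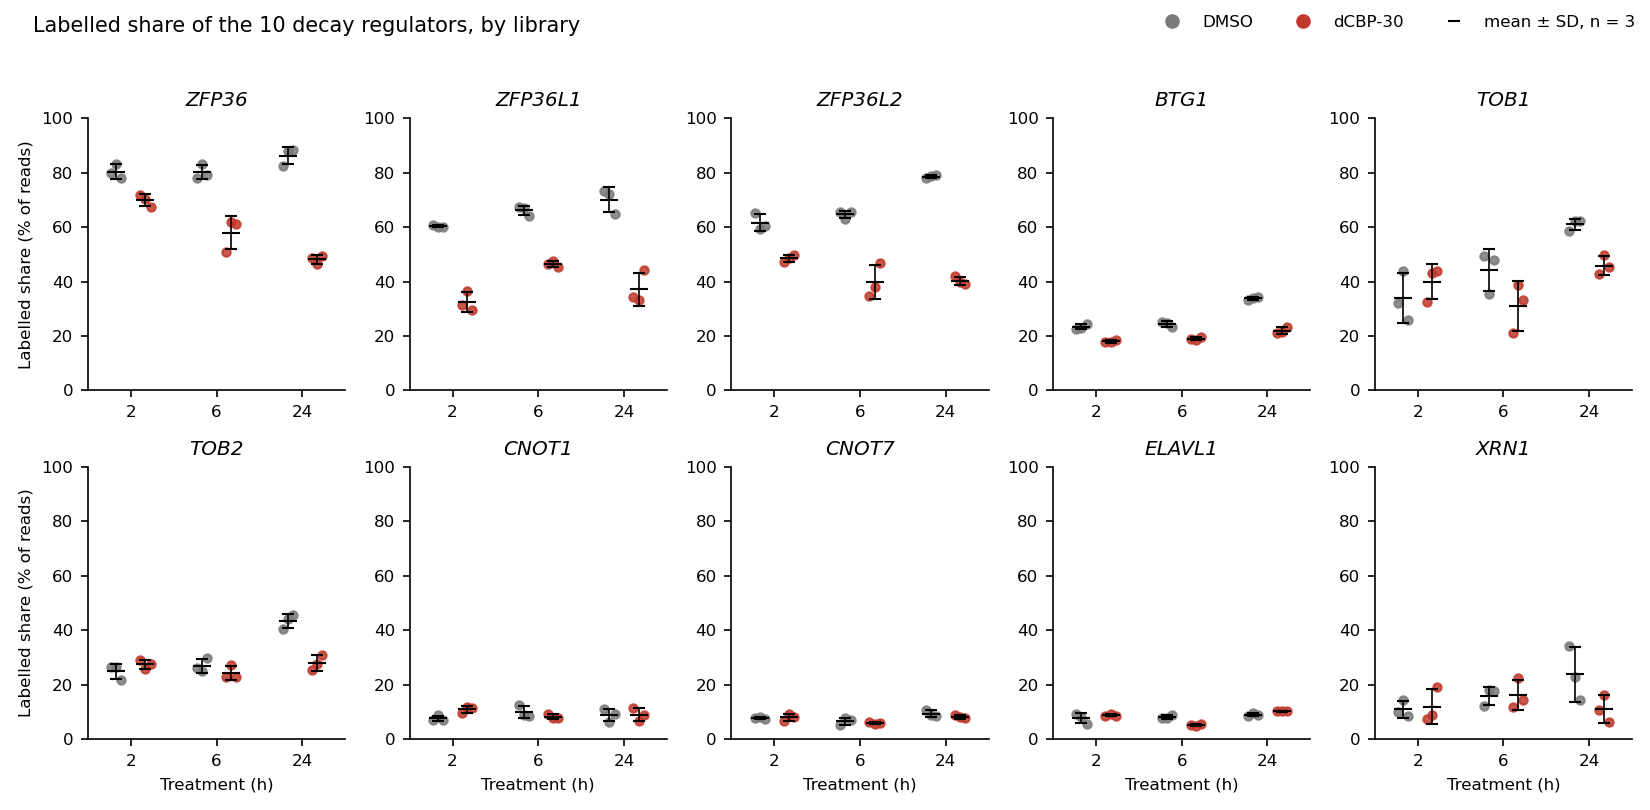
Labelled share (percentage of a gene's reads with a T>C change, vertical axis) against hours of treatment for the 10 members, with 1 point per library, DMSO in grey, dCBP-30 in red and bars for the mean ± SD of 3 libraries. The DMSO points of ZFP36 sit near 80% and those of CNOT1, CNOT7 and ELAVL1 near 10%, and at 24 h the dCBP-30 points of ZFP36, ZFP36L1 and ZFP36L2 lie far below DMSO.

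The T>C reads of the tristetraprolin family fell within 2 h of dCBP-30. ZFP36, tristetraprolin itself, an early-response gene whose product destabilizes cytokine mRNAs, had 32.3, 32.9 and 39.3 T>C RPM in the DMSO libraries and 4.66, 9.11 and 6.26 in the dCBP-30 libraries. The groups were far apart, and the difference was 5.18-fold (log2 -2.37 ± 0.21 SE, adjusted p = 2.9e-14). At 6 h it had 43.0, 38.7 and 40.1 T>C RPM with DMSO and 5.21, 5.10 and 8.58 with dCBP-30, a fall of 6.45-fold (adjusted p = 1.4e-16). Every treated library was again below every control library.

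ZFP36L1, which with ZFP36L2 limits the cell cycle of developing lymphocytes, fell most of the 10 members at both early times. It had 43.9, 53.2 and 48.9 T>C RPM with DMSO and 6.38, 9.18 and 4.82 with dCBP-30 at 2 h, 7.16-fold lower (log2 -2.84 ± 0.20, adjusted p = 6.6e-18). At 6 h the values were 54.8, 58.0 and 48.7 against 5.27, 6.44 and 7.23, 8.53-fold lower (adjusted p = 1.1e-19). The treated libraries of both times overlapped each other, and the 6 h change did not differ detectably from the 2 h change (difference -0.25 ± 0.27, adjusted p = 0.69).

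ZFP36L2 was slower to fall. Its T>C reads were 131, 124 and 128 RPM with DMSO and 47.9, 72.3 and 42.6 with dCBP-30 at 2 h, 2.36-fold lower (log2 -1.24 ± 0.23, adjusted p = 3.5e-04). At 6 h they were 160, 121 and 117 RPM against 12.9, 15.2 and 30.8, 6.77-fold lower (adjusted p = 1.1e-09). The fall was thus deeper at 6 h than at 2 h, by -1.52 ± 0.33 on the log2 scale (adjusted p = 0.0029 for the interaction). ZFP36L2 was the 1 member whose T>C change passed this test between 2 and 6 h, against 8.03% of all genes.

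BTG1, an antiproliferative adaptor of CNOT7 that is often mutated in B cell lymphoma, fell at both early times. It had 131, 121 and 121 T>C RPM with DMSO and 34.2, 38.7 and 35.5 with dCBP-30 at 2 h, 3.45-fold lower (log2 -1.78 ± 0.14, adjusted p = 3.4e-16). At 6 h it had 140, 129 and 120 against 48.1, 44.9 and 47.9, 2.76-fold lower (adjusted p = 1.9e-13). No treated library came near a control library at either time.

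**Figure D2:**
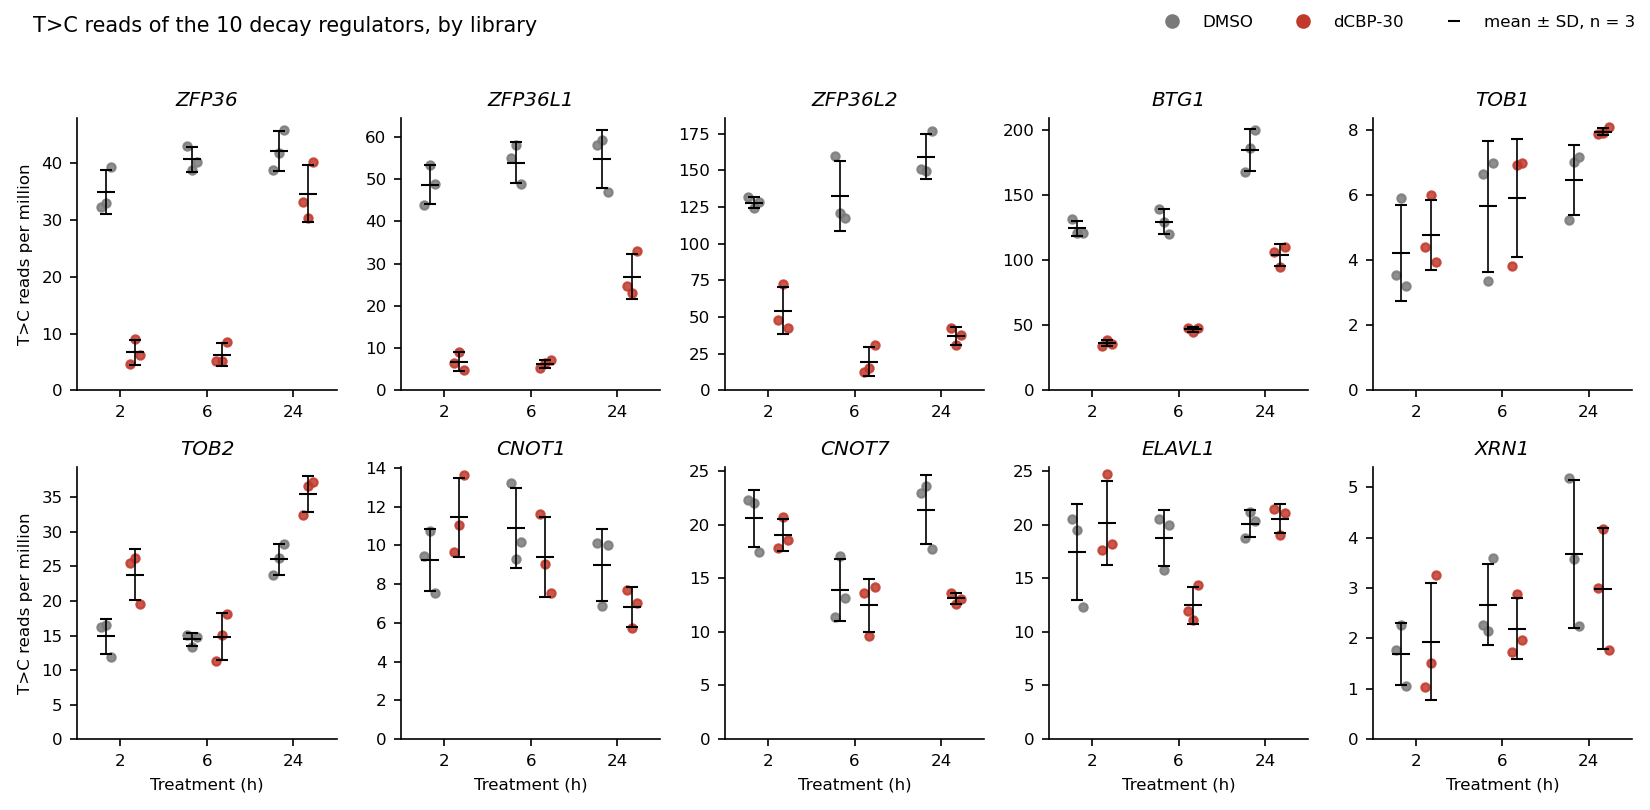
T>C reads in RPM (vertical axis, each gene on its own scale from 0) against hours of treatment for the 10 members, with 1 point per library, DMSO in grey, dCBP-30 in red and bars for the mean ± SD of 3 libraries. The red points of ZFP36, ZFP36L1, ZFP36L2 and BTG1 lie far below the grey ones at 2 and 6 h. At 24 h those of ZFP36 overlap the grey ones in part. The points of the other 6 members mostly overlap.

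The other 6 members, which include the decay enzymes and their scaffold, were not called at 2 or 6 h. At 2 h, TOB2, the TOB family adaptor that also links deadenylation to poly(A)-binding protein, had 25.5, 26.3 and 19.6 T>C RPM with dCBP-30 and 16.2, 16.5 and 11.9 with DMSO. These groups did not overlap, and the difference passed the test in the higher direction without reaching 2-fold (log2 0.67 ± 0.20, adjusted p = 0.013, and between 0.0027 and 0.12 under the alternatives run). ELAVL1 at 6 h was the other, with 11.97, 11.1 and 14.4 T>C RPM under dCBP-30 and 20.5, 15.8 and 19.9 under DMSO (log2 -0.59 ± 0.21, adjusted p = 0.029). Scaled by the T>C reads in place of all reads, the ELAVL1 difference was -0.27 with an adjusted p of 0.36. For the T>C reads of CNOT1, CNOT7, TOB1 and XRN1 the estimates at these times lay between -0.28 and 0.31 on the log2 scale. Their 95% intervals ran from -0.19 to 0.81 at 2 h and from -0.71 to 0.29 at 6 h for CNOT1, and from -0.51 to 0.29 and from -0.56 to 0.25 for CNOT7, so that a fall of 2-fold lay outside them. For XRN1, which had 12 to 53 T>C reads per library at 2 and 6 h, the interval at 2 h ran from -0.77 to 1.18 and at 6 h from -1.22 to 0.66, so that at this depth a 2-fold rise at 2 h and a 2-fold fall at 6 h lay within them.

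In all, 4 of the 10 members were called lower in T>C reads after 2 h and 4 after 6 h, and none was called higher. Over the 10086 genes tested, 7.14% were called lower and 1.66% higher at 2 h, and 17.1% and 2.36% at 6 h. The same 4 genes were called at both times, and these 2 counts were also 4 under each scaling, tool, filter and left-out library tried. The median of the 10 members was 0.03 at 2 h and -0.43 at 6 h (log2), beside 0.05 and -0.27 for all genes tested, so the falls were those of 4 members and not of the whole set. The groups of 5 members did not overlap at each of these times, but the share of all genes without overlap was not counted, so no weight is put on this.

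The amount of mRNA of these 4 genes was also lower, counted in all reads, which include the T>C reads. At 2 h, ZFP36 had 40.4, 39.5 and 50.3 RPM in all reads with DMSO and 6.47, 12.9 and 9.26 with dCBP-30, a 4.50-fold fall (adjusted p = 2.5e-08). ZFP36L1 went from 72.3, 88.8 and 81.3 RPM to 20.4, 25.02 and 16.2 (3.94-fold, adjusted p = 5.8e-10), and BTG1 from 580, 525 and 497 RPM to 190, 219 and 191 (2.67-fold, adjusted p = 1.8e-10). The treated and control libraries of these genes were well separated. ZFP36L2 had 101, 148 and 85.6 RPM against 202, 210 and 212, a 1.86-fold fall that passed the test but was short of 2-fold (adjusted p = 0.0066). By 6 h ZFP36L2 was called as well, with 37.2, 39.9 and 65.8 RPM against 244, 191 and 179 (4.30-fold, adjusted p = 1.4e-08). Thus 3 members were called lower in all reads at 2 h and 4 at 6 h, with none called higher, beside 1.25% lower and 0.464% higher of the 12272 genes tested at 2 h, and 8.67% and 7.47% at 6 h. Without dCBP-30 replicate 2, ZFP36L2 was also called at 2 h (-1.16, adjusted p = 3.3e-04), and with total reads unscaled by TMM factors BTG1 at 6 h was at -0.79 (adjusted p = 6.5e-07) and not called.

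CNOT1, CNOT7 and ELAVL1 did not pass the test in all reads at 2 or 6 h, with estimates between -0.22 and 0.05 (log2). Their 95% intervals stayed within 0.47 of 0 on this scale. At 6 h this rests on the scaling. The estimates reached 0.37 for CNOT1, 0.32 for CNOT7 and 0.34 for ELAVL1 under the alternatives run. Their lowest adjusted p was 0.016, 0.043 and 0.019. With total reads unscaled by TMM factors the median of all genes at 6 h was itself 0.35. TOB1, an antiproliferative adaptor related to TOB2, had 18.3, 17.9 and 21.0 RPM against 13.4, 9.45 and 14.5 at 6 h (log2 0.61 ± 0.20, adjusted p = 0.019), higher in each treated library but under 2-fold. TOB2 was higher at 2 h, with 87.3, 102 and 71.1 RPM against 61.2, 62.1 and 54.8 (log2 0.55 ± 0.15, adjusted p = 0.032), and its groups overlapped at 6 h. Under the alternatives run the adjusted p reached 0.12 for TOB1 and 0.19 for TOB2.

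**Figure D3:**
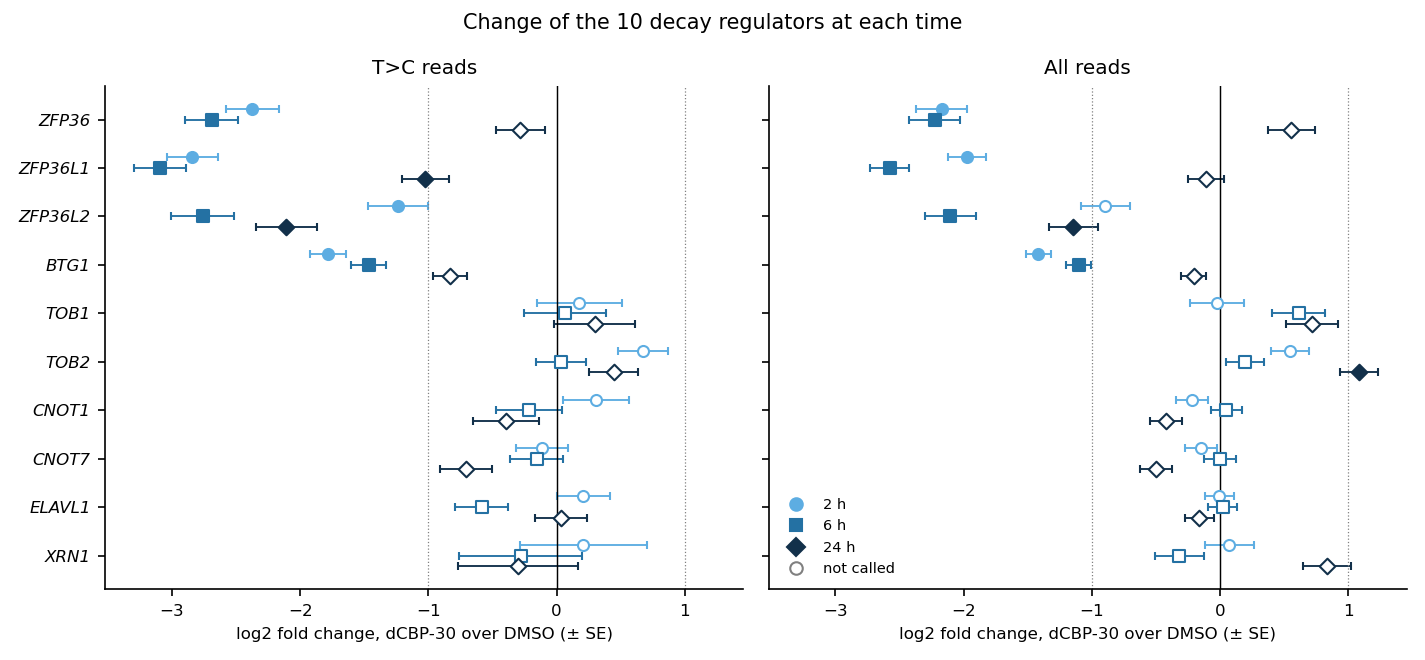
log2 fold change of dCBP-30 over DMSO (horizontal axis, ± SE) for the 10 members in T>C reads (left) and all reads (right), with circles for 2 h, squares for 6 h and diamonds for 24 h, filled where called and open where not, and dotted lines at a 2-fold change. ZFP36, ZFP36L1 and BTG1 are far to the left at 2 and 6 h and return toward 0 at 24 h, ZFP36L2 stays to the left, and the other 6 members stay within 2-fold except TOB2 in all reads at 24 h.

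The labelled share fell less than the counts did in ZFP36. At 2 h its share was 72.0%, 70.4% and 67.6% with dCBP-30 and 80.0%, 83.4% and 78.0% with DMSO, without overlap, but the change in the odds of a T>C change did not pass the test (log2 -0.84 ± 0.34, adjusted p = 0.18). ZFP36L1 had the clearest fall of share at 2 h, with 31.4%, 36.7% and 29.7% against 60.7%, 60.0% and 60.2% (log2 odds -1.65 ± 0.28, adjusted p = 2.4e-04), and it was the 1 member called. For ZFP36L2 (47.3%, 48.8% and 49.8% against 65.1%, 59.3% and 60.5%, adjusted p = 0.021) and BTG1 (17.9%, 17.7% and 18.6% against 22.7%, 23.0% and 24.4%, adjusted p = 0.032) the share fell by less than 2-fold in odds, and under the alternatives run these adjusted p-values lay between 0.036 and 0.12 and between 0.053 and 0.13. At 6 h the 3 tristetraprolin genes were called lower, by -1.56 (ZFP36), -1.18 (ZFP36L1) and -1.47 (ZFP36L2) in log2 odds. These counts of 1 and 3 of 10 stand beside 4.44% of genes lower and 0.644% higher at 2 h, and 4.19% and 0.198% at 6 h.

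At 24 h the members separated. ZFP36 had 33.2, 30.4 and 40.1 T>C RPM with dCBP-30 and 38.7, 41.7 and 45.7 with DMSO, groups that overlapped (log2 -0.28 ± 0.19, adjusted p = 0.25). In all reads ZFP36 was above control in each library, with 68.1, 65.4 and 80.9 RPM against 46.8, 47.5 and 51.8 (log2 0.55 ± 0.18, adjusted p = 0.012, and at most 0.064 under the alternatives run), under 2-fold. With total reads unscaled by TMM factors ZFP36 was at 1.08 in all reads (adjusted p = 2.1e-05) and called higher. Its labelled share was nonetheless 48.7%, 46.5% and 49.6% against 82.7%, 87.9% and 88.4%, the largest change among the 10 members on the scale of odds (log2 odds -2.78 ± 0.32, adjusted p = 1.1e-06).

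ZFP36L1 came part of the way back in T>C reads, with 24.6, 23.0 and 33.0 RPM against 57.9, 59.3 and 46.9. It was 2.03-fold lower (log2 -1.02 ± 0.18, adjusted p = 5.4e-06), just past the 2-fold line, and lay under that line (-0.92 to -0.98) without either of DMSO replicates 1 and 2 or dCBP-30 replicates 1 and 2. In all reads its groups overlapped, with 71.8, 69.2 and 74.8 RPM against 79.2, 82.0 and 72.3 (adjusted p = 0.50). BTG1 had 106, 94.5 and 111 T>C RPM against 168, 186 and 200, lower in each library but by 1.78-fold (adjusted p = 7.9e-07), and 507, 436 and 474 RPM in all reads against 504, 547 and 582 (adjusted p = 0.076). These all-reads differences rest on the scaling and reached 0.41 for ZFP36L1 and 0.32 for BTG1 (log2) under the alternatives run. The lowest adjusted p under any alternative was 0.016 for ZFP36L1 and 0.0068 for BTG1.

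ZFP36L2 stayed low. It had 42.6, 30.7 and 37.6 T>C RPM against 151, 150 and 177 (4.31-fold lower, adjusted p = 5.3e-08) and 101, 77.0 and 96.4 RPM in all reads against 194, 190 and 224 (2.21-fold lower, adjusted p = 2.5e-05). No treated library reached a control library in either measure. With total reads unscaled by TMM factors, ZFP36L2 in all reads was at -0.62 (log2, adjusted p = 0.0064) and not called. Its labelled share was 42.0%, 39.9% and 39.0% against 77.9%, 78.7% and 79.2% (log2 odds -2.45 ± 0.21).

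At 24 h, then, 2 members were called lower and none higher in T>C reads, beside 31.2% lower and 2.17% higher of all genes tested. With only 10 genes, 2 called lower is near that background, and the count moved between 1 and 2 under the alternatives run. Scaled by the T>C reads, which moved the median of all genes from -0.69 to -0.04, 1517 genes were called lower and 759 higher in place of 3148 and 219. On that scale ZFP36L2 was the 1 member lower (-1.46, adjusted p = 7.8e-07), ZFP36L1 was at -0.39 (adjusted p = 0.091), ZFP36 was at 0.36 and BTG1 at -0.18, so that relative to newly made RNA as a whole these 3 did not differ detectably from control. The labelled share was called lower in 3 members, the tristetraprolin genes, beside 19.1% lower and 0.0892% higher of all genes.

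The conversions counted per T>C read moved with these 24 h values. Over the 3 libraries of a group they were 1.91 in dCBP-30 and 4.55 in DMSO for ZFP36, 1.91 and 3.10 for ZFP36L1, 2.03 and 3.55 for ZFP36L2, and 1.48 and 2.40 for BTG1. At 2 h these pairs were closer, with 3.60 and 3.84 for ZFP36 and 3.14 and 3.19 for ZFP36L2. The part of the labelling itself in the 24 h T>C reads and shares was not tested. All reads do not use the conversions but include the T>C reads. At 24 h they gave 0.55 for ZFP36, -0.11 for ZFP36L1, -0.21 for BTG1 and -1.14 for ZFP36L2 (log2). The T>C reads gave -0.28, -1.02, -0.83 and -2.11 in the same order of genes.

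Of the decay machinery at 24 h, XRN1, the 5′-to-3′ exonuclease, had more mRNA, with 28.6, 25.7 and 28.8 RPM in all reads against 15.2, 15.6 and 15.7 (log2 0.84 ± 0.19, adjusted p = 4.5e-04). Its T>C reads were 3.01, 4.17 and 1.77 RPM against 5.18, 3.58 and 2.25 and overlapped. CNOT7 was lower in T>C reads (13.6, 12.6 and 13.1 RPM against 22.9, 23.6 and 17.7, log2 -0.71 ± 0.20, adjusted p = 0.0041) and in all reads (153, 159 and 173 RPM against 214, 261 and 209, log2 -0.50 ± 0.13, adjusted p = 0.0015). CNOT1 was lower in all reads (67.3, 84.2 and 79.3 RPM against 92.5, 106 and 111, log2 -0.42 ± 0.12, adjusted p = 0.0055). None of these reached 2-fold, and with total reads unscaled by TMM factors the differences of CNOT1 and CNOT7 in all reads were 0.10 and 0.02, so their direction rests on the scaling. In that setting XRN1 was at 1.36 in all reads (adjusted p = 7.1e-07) and called higher. The T>C difference of CNOT7, close to the median of all genes, was -0.06 (adjusted p = 0.86) scaled by the T>C reads and -0.19 (adjusted p = 0.55) with unscaled total reads. The CNOT1 UTR overlaps SETD6 on the opposite strand.

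TOB2 was the member called higher at 24 h, in all reads, with 127, 134 and 120 RPM against 58.9, 59.4 and 61.7 (2.12-fold, log2 1.08 ± 0.15, adjusted p = 7.2e-07). The groups stood well apart. TOB1 was also higher there, with 18.4, 15.9 and 17.9 RPM against 8.94, 11.3 and 11.5 (log2 0.72 ± 0.20, adjusted p = 0.0042), under 2-fold. With total reads unscaled by TMM factors TOB1 was at 1.24 (adjusted p = 9.1e-06) and called higher. The labelled share of TOB2 was lower in the same cells, at 25.5%, 27.4% and 31.0% against 40.4%, 44.1% and 45.7%. That change (log2 odds -0.98 ± 0.24, adjusted p = 0.0044) was close to the median of all genes tested (-0.79). The T>C reads of TOB2 were 32.5, 36.7 and 37.2 RPM against 23.8, 26.2 and 28.2 and did not pass the test (log2 0.45 ± 0.19, adjusted p = 0.055). Scaled by the T>C reads they were at 1.10 (adjusted p = 3.1e-06) and called higher. ELAVL1 did not pass the test in any measure at 24 h, with 205, 187 and 206 RPM in all reads against 217, 221 and 231 (log2 -0.16, 95% interval -0.38 to 0.06). This too rests on the scaling. With unscaled total reads, where the median gene moved by 0.58 in all reads, ELAVL1 was at 0.36 in all reads (adjusted p = 0.0086) and 0.56 in T>C reads (adjusted p = 0.031), and scaled by the T>C reads it was at 0.68 (adjusted p = 0.0055). In all reads at 24 h 1 member was called lower and 1 higher, beside 16.1% and 15% of all genes. With unscaled total reads, 1061 genes were called lower and 3689 higher in all reads in place of 1972 and 1841.

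The course over time was tested as the difference between the changes. From 2 to 24 h the T>C change rose by 2.09 ± 0.28 in ZFP36 (adjusted p = 2.5e-08), by 1.82 ± 0.27 in ZFP36L1 (adjusted p = 2.4e-07) and by 0.96 ± 0.19 in BTG1 (adjusted p = 9.1e-05), and went down by -0.87 ± 0.32 in ZFP36L2 (adjusted p = 0.049), the last of which was lost under other scalings. These 4 of 10 stand beside 26% of all genes that passed the test in either direction. From 6 to 24 h, a comparison chosen after the data were seen, the T>C change rose in ZFP36 (2.41 ± 0.28), ZFP36L1 (2.07 ± 0.27) and BTG1 (0.64 ± 0.19), 3 of 10 beside 12.1% of all genes, while the median of all genes tested moved by -0.37. The estimate for ZFP36L2 was as large as that of BTG1 (0.65 ± 0.32) but did not pass the test (adjusted p = 0.22). It passed scaled by the T>C reads (1.00, adjusted p = 0.018) and without dCBP-30 replicate 3 of 6 h (1.13, adjusted p = 3.7e-04). In all reads over the same interval 8 of 10 members passed the test, beside 32.1% of all genes. Those that rose were ZFP36 by 2.78, ZFP36L1 by 2.46, XRN1 by 1.15, ZFP36L2 by 0.96, BTG1 by 0.90 and TOB2 by 0.89 (log2), and those that went down were CNOT1 by -0.47 and CNOT7 by -0.50. CNOT1 and CNOT7 lost the test when single libraries were left out (adjusted p up to 0.13), and the T>C rise of BTG1 lost it without DMSO replicate 1 of 6 h (0.055) or of 24 h (0.066). These comparisons share libraries and are not independent of each other.

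The course of each of the 4 falling genes over the 18 labelled libraries was set beside that of all 7560 genes whose T>C reads averaged 20 or more, by Pearson correlation of log2 T>C RPM with a pseudocount of 0.1. The libraries share their treatment groups, so the values describe the shape of the course. ZFP36 was most like SUN2 (r = 0.970), CFLAR (0.970) and ARHGEF2 (0.967), and ZFP36L1 like ARHGEF2 (0.984), TLNRD1 (0.983) and RASSF5 (0.982). BTG1 was most like RASSF5 (0.982), MCL1 (0.978) and ARL6IP5 (0.976). ZFP36L2, with its lasting fall, was most like RAB36 (0.984), with TLE3 also close (0.975). Among the members, r was 0.966 for ZFP36 with ZFP36L1 and 0.957 for ZFP36L1 with BTG1, but 0.737 for ZFP36 with ZFP36L2.

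The rest of the decay pathway was described from lists of 99 genes in 9 groups, of which 89 were not members and 83 of those were tested in T>C reads. At 2 h, 6 of the 83 were called lower and 1 higher, near the background of 7.14% and 1.66% of all genes tested. The deepest was BTG2, the p53-induced relative of BTG1, with 7.90 ± 0.11 T>C RPM against 102 ± 10.5 (SD, n = 3), log2 -3.70 ± 0.18 (adjusted p = 5.6e-25). CPEB4, a regulator of poly(A) tail length, fell by 2.25 on the log2 scale, the deadenylase CNOT6L by 1.72, the decapping helicase DDX6 by 1.24 and ZC3H12A, the endonuclease Regnase-1, by 1.18. AGO1, an Argonaute protein of the miRNA silencing complex, was called higher (1.60 ± 0.46), a call lost without replicate 2 of either arm. By list, 2 of 5 BTG/TOB genes tested, 3 of 9 AU-rich element binding proteins (the tristetraprolin family itself) and 1 of 11 CCR4-NOT subunits were called lower, and none of 15 exosome and SKI genes.

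At 6 h, 14 of 83 were called lower and 2 higher, again near the background (17.1% and 2.36%). BTG2 (-2.70), CPEB4 (-2.12) and ZC3H12A (-1.97) were again deepest. Next came EIF4ENIF1 (-1.90), a translation repressor that binds the cap factor eIF4E, EXOSC5 (-1.59), LSM7 (-1.57), PABPC4 (-1.35), a cytoplasmic poly(A)-binding protein, and AGO2 (-1.25). The Argonaute genes AGO4 (2.10 ± 0.62) and AGO3 (1.03 ± 0.35) were higher. Several of these calls were lost when 1 library was left out: AGO3, EIF4ENIF1 and EXOSC5 without DMSO replicate 3, AGO4 and EIF4ENIF1 without DMSO replicate 1, and EIF4ENIF1, AGO2 and AGO3 without dCBP-30 replicates 1, 2 and 3 in turn. EIF4ENIF1 rests on few reads, with 0.687 T>C RPM in dCBP-30, as does AGO4 in DMSO with 0.764. AGO2 went just under 2-fold without dCBP-30 replicate 2 (-0.98, adjusted p = 0.0065), and also scaled by the T>C reads (-0.95), with unscaled total reads (-0.94) and with reads summed over transcripts (-0.98). The call of AGO4 was lost with summed transcripts (adjusted p = 0.077) and that of EIF4ENIF1 with unscaled total reads (adjusted p = 0.051). In all reads BTG2 (-2.57), CPEB4 (-1.51), ZC3H12A (-1.88) and AGO4 (1.88) were past 2-fold in the same direction, whereas EIF4ENIF1 was at -0.25 with an adjusted p of 0.42.

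At 24 h the RNA exosome, the 3′-to-5′ exonuclease complex, was the list with the lowest median. Of its 15 genes with the SKI complex, 10 were called lower in T>C reads (median -1.67, beside -0.69 for all genes tested, of which 31.2% were called lower) and 7 in all reads (median -0.75, beside 0.05 and 16.1%), and none was called higher. EXOSC5, a core ring subunit, had 0.578 ± 0.380 T>C RPM against 5.64 ± 0.650 (-3.27 ± 0.48) and was as low in all reads (-3.34 ± 0.14, adjusted p = 1.8e-16). EXOSC8 (-3.25), EXOSC2 (-2.66) and EXOSC9 (-2.32) followed in T>C reads, with -2.18, -2.19 and -1.33 in all reads. Scaled by the T>C reads 5 of the 15 were called, and with unscaled total reads 6 in T>C reads and 3 in all reads. LSM4 (-3.10) and LSM6 (-2.26), subunits of the LSM ring that binds deadenylated ends, PABPC4 (-1.92) and SMG9 (-1.89) were also lower, and AGO4 was higher (3.10 ± 0.63, and 2.67 ± 0.26 in all reads). EXOSC5, EXOSC8 (0.781 T>C RPM) and LSM6 (0.937) rest on few reads in dCBP-30, as does AGO4 in DMSO (0.617). The size of their changes in T>C reads is thus loosely set. Over all 83 genes 28 were called lower and 1 higher, near the background of 31.2% and 2.17%. BTG2, the deepest at the early times, was at -0.53 in T>C reads and 0.38 in all reads.

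**Figure D4:**
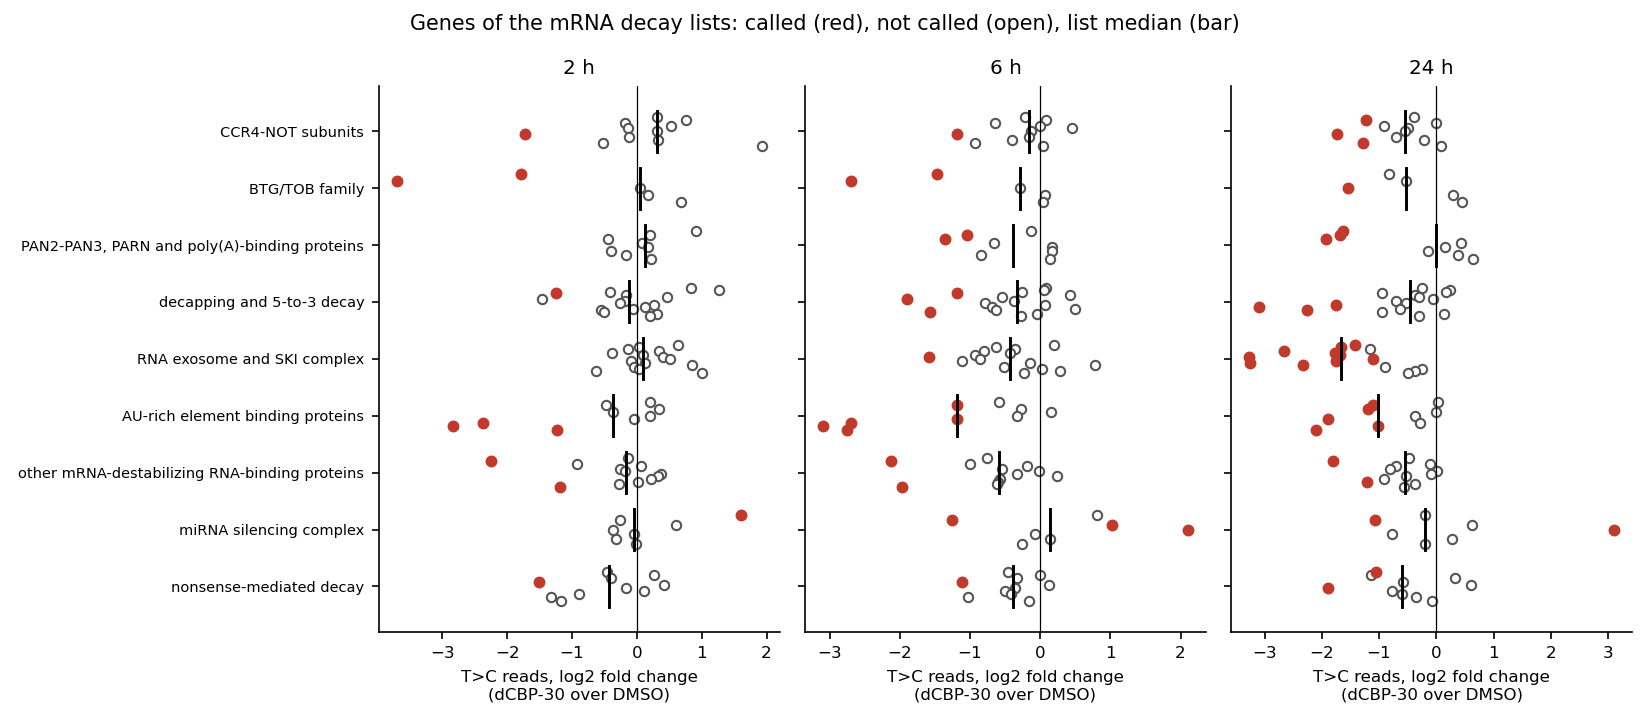
log2 fold change of T>C reads, dCBP-30 over DMSO (horizontal axis), for every tested gene of 9 mRNA decay lists, members included, at 2, 6 and 24 h, with red points for called genes, open points for the others and a bar for the list median. At 2 h the red points are a few genes of the BTG/TOB, AU-rich element binding and other destabilizing lists, and at 24 h the exosome list has 10 of 15 genes in red with its median at -1.67.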

How the data were processed

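MM1.S SLAM-seq libraries (QuantSeq 3′ mRNA-seq, single-end) were trimmed with TrimGalore and processed by the authors with Slamdunk on 3′ UTRs of hg38, and reads were collapsed per transcript. The authors deposited 1 table of raw counts for each library, unpooled, which gives the reads, the reads with T>C changes, the conversions and the T coverage of every transcript. The deposited CPM values and the conversion rate, deposited as a fraction, were not used in a test. The methods do not say how T>C reads were scaled. They describe labelled Drosophila RNA added as a spike-in, whose reads were not used here, so every value is relative to the human reads and no absolute scale was set.

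Of 97466 transcript rows, 89088 (91.4%) matched GENCODE release 44, and unmatched rows held 0.0789% to 0.199% of reads. Each gene was given its transcript with most reads over the 20 libraries. ZFP36, ZFP36L1, CNOT1, CNOT7, ELAVL1 and XRN1 have several. Counts of the 18 labelled libraries were fitted with edgeR 4.0.16 (quasi-likelihood, robust, 1 mean per group) in R 4.3.3, with library sizes from total reads times TMM factors and filterByExpr (minimum count of 10). The labelled share was tested as T>C against other reads within each library. SE is the log2 fold change over the root of the F statistic, and 95% intervals are 1.96 SE either side.

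Libraries of a group were not copies (chi-square per degree of freedom 8.54 to 50.1). The scripts were tested on simulated data, with limma 3.58.1 and Python 3.11.15 also used. DESeq2 1.42.0 was an alternative. The members and gene lists were chosen with earlier results of these data known. From the lists, called genes whose T>C reads averaged 20 or more in the group where they were higher are named, up to 8 in each direction at a time point by size of change, along with the 3 genes most like each of the 4 falling members. Some genes that meet this rule are not reported here.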

Additional observations from a re-analysis of the deposited data

Results flagged for a closer look

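The changes of some members differed between time points by the interaction term of the fit, which flagged them for a closer look. Values are differences between the log2 changes at the later and the earlier time. In T>C reads ZFP36L2 was lower at 6 than at 2 h (-1.52). At 24 against 2 h ZFP36 was higher (2.09), as were ZFP36L1 (1.82) and BTG1 (0.955, adjusted p = 9.1e-05), and ZFP36L2 was lower (-0.87, adjusted p = 0.049). At 24 against 6 h ZFP36 (2.41), ZFP36L1 (2.07) and BTG1 (0.636) were higher in T>C reads. In all reads at 24 against 6 h ZFP36 (2.78), ZFP36L1 (2.46), XRN1 (1.15), ZFP36L2 (0.962), BTG1 (0.899) and TOB2 (0.891) were higher, and CNOT1 (-0.472, adjusted p = 0.043) and CNOT7 (-0.499, adjusted p = 0.034) lower. Groups of 3 libraries are too small for a test of single outlying libraries.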

How the results depend on the processing

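The counts of members called lower in T>C reads at 2 and 6 h (4 and 4) and in the labelled share at 2 and 6 h (1 and 3) were unchanged under every alternative run. The 24 h counts depended on scaling. Scaled by the T>C reads, 1 member was called lower and 1 higher (TOB2) in T>C reads, in place of 2 and 0, 13 of the other decay genes lower in place of 28, 5 exosome and SKI genes in place of 10, and at 6 h 7 other decay genes in place of 14. The differences called from 2 h were then 0 lower at 24 h and 1 higher at 6 h (BTG1), and 5 higher from 6 to 24 h, with ZFP36L2 and ELAVL1 added. With total reads unscaled by TMM factors, the T>C counts were 1 member, 15 other decay genes and 6 exosome genes lower at 24 h, 6 other decay genes at 6 h, and 0 members lower from 2 to 24 h. All reads then gave 4 members higher (ZFP36, TOB1, TOB2 and XRN1) and 0 lower at 24 h, with 6 other decay genes and 3 exosome genes lower. The 24 h changes of CNOT1 and CNOT7 in all reads turned to 0.103 and 0.0232. This scaling moved the median of all genes in all reads at 24 h from 0.05 to 0.58. It also called 1763 genes lower and 602 higher in T>C reads at 24 h in place of 3148 and 219, 1174 and 525 at 6 h in place of 1720 and 238, and 731 lower and 1765 higher in all reads at 6 h in place of 1064 and 917. Reads summed over transcripts gave 2 exosome genes lower at 6 h in place of 1, and 0 members lower from 2 to 24 h. Over all genes, DESeq2 called 253 higher in T>C reads at 2 h in place of 167 and 100 higher in all reads in place of 57, and scaling by the T>C reads called 518 higher at 6 h in place of 238. Leaving out 1 library moved the members called lower in T>C reads at 24 h between 1 and 2, the exosome genes at 6 h between 0 and 1, and the members lower in all reads from 6 to 24 h between 0 and 2. The comparisons of 24 with 6 h were added after seeing the data.

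Signs of changes whose adjusted p was 0.05 or more carry no direction here. Replicate numbers did not pair the samples: deviations of same-numbered libraries correlated between -0.0429 and 0.0179 (9 pairs) and those of other pairs between -0.025 and 0.0488 (18). With the replicate block, the T>C reads of 677 genes were called lower at 2 h, of 1687 genes at 6 h and of 3087 genes at 24 h, the members called lower were 4, 4 and 2, and 0 members were lower in all reads from 6 to 24 h in place of 2. Depth limits XRN1 and TOB1 most.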
